A study of Mus musculus with 37 samples.

Results

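The comparison described here is that of CD-1 dams given 0.1 mg/kg bw/day of HFPO-DA, the lowest dose of the study, with dams given the vehicle alone. Earlier results of these data were known when the comparison, gene lists and tests were chosen. The dams were picked by their labels for sex and dose, and no measured value entered that rule. They are 10 of the 18 dams and of the 37 mice with deposited counts, with 5 dams at 0.1 mg/kg and 5 control dams. HFPO-DA is a short-chain perfluoroalkyl ether acid used as a processing aid in making fluoropolymers. Livers were assayed by TempO-Seq, in which a pair of detector probes is joined where both have annealed side by side on a transcript, and the joined product is read out by sequencing.

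Both groups were Crl:CD1(ICR) females of the parental generation, an outbred stock, and were about 11 weeks old when dosing began. Each was dosed by oral gavage once daily from 14 days before mating, through gestation, to day 20 or 21 of lactation, which came to 53 to 65 doses. The dosed dams received the ammonium salt of HFPO-DA, and control dams deionized water alone, on the same schedule. Dosing thus spanned mating, gestation and lactation, and the comparison holds for that schedule. The sections were fixed in formalin and embedded in paraffin, so RNA was read from fragments. Fewer cells of a type and less RNA per cell cannot be told apart in such sections. Nothing in the labels pairs a treated dam with a control dam.

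HFPO-DA activates the peroxisome proliferator-activated receptor α (PPARα), a nuclear receptor of the liver that senses fatty acids. With its partner, the retinoid X receptor, it binds direct repeats of a short hexamer spaced by a single base, and raises the transcription of genes for fatty acid uptake, microsomal ω-oxidation by the Cyp4a enzymes, and β-oxidation in peroxisomes and mitochondria. In mice the Cyp4a genes and the peroxisomal enzymes are among the most sensitive readouts of such ligands. Cholesterol synthesis is controlled apart from it, by the factor SREBP2, which enters the nucleus when sterols are scarce and binds sterol regulatory elements.

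Promoter sequences of 3 genes that recur below are shown for what these elements look like in the genes themselves. They are the bases before the transcription start in RefSeq for GRCm38.p6, 5′ to 3′ on the strand of the gene, and bases that GENCODE places inside a transcript of the gene were cut off. Capitals mark matches, on either strand, to AGGNCA, any base and AGGNCA again, a direct repeat of the hexamer that PPARα binds, or to TCACNCCAC, a sterol regulatory element. Hmgcs1, at chr13:119690101-119690350 on the plus strand, encodes the enzyme that makes HMG-CoA for cholesterol synthesis, and its match to the sterol element starts 137 bases before the start. Fabp1, at chr6:71199629-71199826 on the plus strand, encodes the liver fatty acid binding protein, and its direct repeat lies on the minus strand, 67 bases before the start. Ehhadh, at chr16:21787835-21788084 on the minus strand, encodes the peroxisomal bifunctional enzyme, and its window matched the sterol element in antisense but no direct repeat.
Hmgcs1: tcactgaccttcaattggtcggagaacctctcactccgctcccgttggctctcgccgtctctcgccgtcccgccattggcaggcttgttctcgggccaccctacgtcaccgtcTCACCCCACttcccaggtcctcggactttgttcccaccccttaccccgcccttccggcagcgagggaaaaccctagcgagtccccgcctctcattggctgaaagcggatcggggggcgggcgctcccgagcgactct
Fabp1: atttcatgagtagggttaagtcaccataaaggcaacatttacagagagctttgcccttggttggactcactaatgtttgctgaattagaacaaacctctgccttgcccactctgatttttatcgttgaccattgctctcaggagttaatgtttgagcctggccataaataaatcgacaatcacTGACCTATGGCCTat
Ehhadh: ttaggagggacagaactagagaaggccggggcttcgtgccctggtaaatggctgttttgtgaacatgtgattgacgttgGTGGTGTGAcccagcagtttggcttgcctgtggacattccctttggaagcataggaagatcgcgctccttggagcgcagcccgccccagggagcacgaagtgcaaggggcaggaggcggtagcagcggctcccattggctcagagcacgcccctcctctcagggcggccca
Of 32851 RefSeq windows of 250 bases, 0.338% held the direct repeat and 1.05% the sterol element. Among 22 PPARα responders with a window, Fabp1 alone held the direct repeat, and among 17 cholesterol genes with a window, Hmgcs1 alone held the sterol element. The sterol element was also in 2 of the 22 PPARα responders, Acsl1 and Ehhadh.

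Depth differed between the groups. Total counts ran from 9612688 to 11523373 in control dams and from 10516636 to 13878254 in dams at 0.1 mg/kg, and this difference passed a two-sided exact permutation test (p = 0.0476, n = 5 and 5). Probes with a count above 0 numbered 17029 to 18521 in control dams and 18689 to 19832 in treated dams, so that the groups did not overlap (exact permutation test, p = 0.00794, the smallest that 5 against 5 can give). After the counts were scaled down to the smallest total, the expected number of probes seen was still 17029 to 18497 against 18613 to 19715. Each treated dam thus showed more probes than any control dam at the same total count. The part of this difference in the results below was not tested. An edgeR fit to thinned counts called 0 probes, but so did the fit to full counts, and DESeq2 was not fitted to thinned counts. The Y-linked genes Ddx3y, Uty, Kdm5d and Eif2s3y gave at most 2 counts in any dam. Hepatocyte markers were abundant, with Apoa1 at a mean of 15637 and 17550 CPM (counts relative to the TMM-scaled library size) in control and treated dams.

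Control dam 3 stood apart from the other control dams in genes of the circadian clock and of cholesterol synthesis. Dbp, a transcription factor of the clock output, was at 4.21 CPM in control dam 3 and at 307 to 403 CPM in the other control dams, and at 261 to 401 CPM in treated dams. Ciart, a repressor of the clock, was at 0.978 CPM in that dam and at 10.0 to 70.4 CPM in the other control dams. Arntl, the clock activator also called Bmal1, was at 6.75 CPM against 0 to 1.06 CPM. The summed level of the 18 clock genes on the table was 318.7 CPM in control dam 3, 828 to 868 CPM in the other control dams, and 787 to 974 CPM in treated dams. Times of day at necropsy were not given in the sources used here. Values without this dam stand beside the results for Cyp4a14 and for the PPARα, cholesterol and bile acid lists.

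No probe passed the test at 0.1 mg/kg. edgeR's quasi-likelihood test was fitted to the 18 dams and tested 17038 probes of 11922 genes. Benjamini-Hochberg adjusted p fell under 0.10 for 0 probes (0%), with 0.133 as the smallest adjusted p. At an unadjusted p under 0.05, 396 probes were higher (2.32%) and 401 lower (2.35%), together 797. The 5 treated dams were all above the 5 control dams on 125 probes (0.734%) and all below on 91 (0.534%). DESeq2, fitted to the same 18 dams, called 48 of the 6214 probes that it gave an adjusted p (0.772%), of 44 genes, 20 probes higher and 28 lower. The study's own DESeq2 analysis, also at a threshold of 0.10, reported far fewer genes for females at this dose. The cause of that difference was not tested. In the same edgeR fit, with the same control dams, 53 probes passed higher (0.311%) and 17 lower (0.0998%) at 0.5 mg/kg, and 941 higher (5.52%) and 1152 lower (6.76%) at 5 mg/kg. Calls at 0.1 mg/kg named below are DESeq2's unless edgeR is named.

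**Figure D1:**
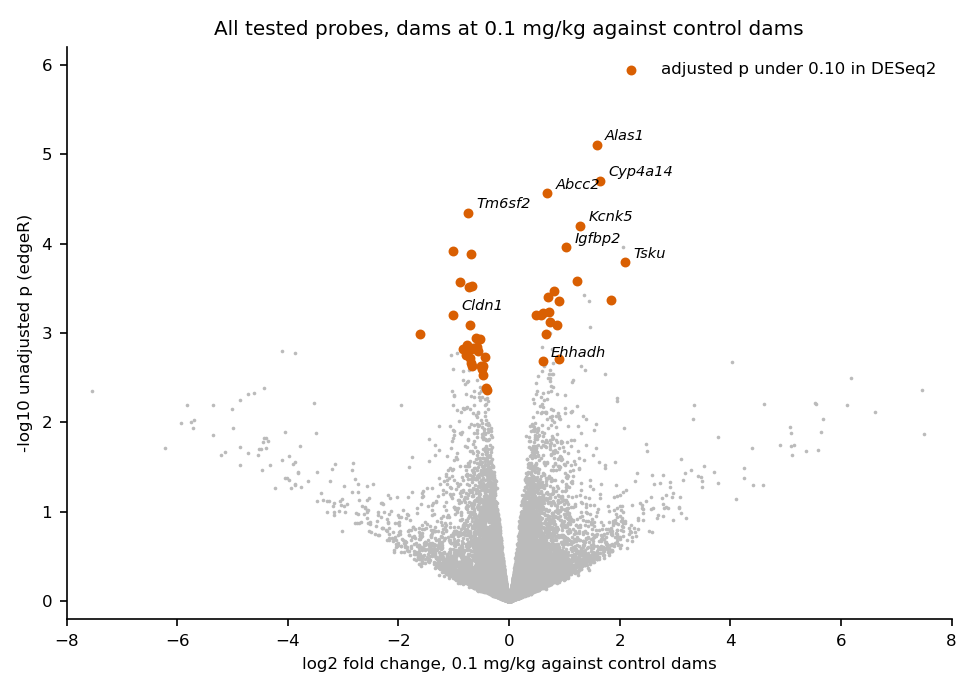
Each point is 1 of 17038 probes, with its log2 fold change at 0.1 mg/kg against control dams on the x axis and −log10 of the unadjusted edgeR p on the y axis. The 48 orange probes had an adjusted p under 0.10 in DESeq2 on the 18 dams, and none passed that threshold in edgeR.

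The probe with the smallest p belonged to Alas1, the rate-limiting enzyme of heme synthesis in the liver (chromosome 9, 106233455 to 106248654, GRCm38). In control dams 1 to 5 it was at 28.5, 9.89, 13.3, 21.2 and 40.7 CPM, and in treated dams 1 to 5 at 56.7, 95.5, 56.1, 63.5 and 70.1 CPM. Every treated dam was above every control dam. The log2 fold change was 1.59 ± 0.28 (SE), with an adjusted p of 0.133 in edgeR and of 0.00024 in DESeq2. All 3 probes for Alas1 were higher, by 1.23 to 1.59 on the log2 scale. The control dams spread over a wider ratio than the treated dams, and leaving out 1 dam at a time gave 1.40 to 1.91 for this probe. Without control dam 5, its highest control value, Alas1 passed in edgeR too (adjusted p = 0.00444).

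Cyp4a14, which hydroxylates fatty acids at the ω end and is a standard PPARα target, came next (chromosome 4, 115486200 to 115496142). Control dams 1 to 5 were at 11.4, 13.5, 38.8, 21.2 and 7.59 CPM, and treated dams 1 to 5 at 80.7, 35.8, 40.1, 67.5 and 66.7 CPM. The groups overlapped only through control dam 3, which lay above treated dam 2. The log2 fold change was 1.65 ± 0.31, with an adjusted p of 0.153 in edgeR and of 0.00981 in DESeq2. Without control dam 3 it was 2.12, with an adjusted p of 0.00092 in edgeR. At 0.5 and 5 mg/kg, against the same control dams, Cyp4a14 rose by 4.36 and 5.90.

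DESeq2 called 17 genes higher in all. Abcc2, which exports conjugated bilirubin and drugs into bile (chromosome 19, 43782192 to 43840740), was at 373, 392, 321, 356 and 394 CPM in control dams 1 to 5 and at 671, 498, 671, 529 and 589 CPM in treated dams 1 to 5. These groups did not overlap, and its 3 probes were higher by 0.46 to 0.69. Por, the reductase that feeds electrons to microsomal P450 enzymes, was at 12.03 to 33.6 CPM in control dams and at 35.8 to 50.7 CPM in treated dams. Its log2 fold change was 0.90 ± 0.22, with an adjusted p of 0.04635 in DESeq2, and it was called in 3 of 10 DESeq2 fits that each left out 1 dam. Fmo5, a flavin monooxygenase of the liver, was at 42.9 to 54.8 CPM against 52.8 to 103 CPM. Dpys, an enzyme of pyrimidine breakdown, was at 141 to 177 CPM against 202 to 277 CPM, and all 5 of its probes were higher, by 0.238 to 1.144.

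Several of the remaining genes with higher values encode secreted or membrane proteins and regulators. Kcnk5, a two-pore potassium channel, was at 29.4, 20.8, 33.8, 27.1 and 29.9 CPM in control dams 1 to 5 and at 60.7, 56.6, 77.6, 63.2 and 84.8 CPM in treated dams 1 to 5. All 5 treated values were above the highest control value, and Kcnk5 was the 1 probe that passed when edgeR was fitted to the 10 dams alone (edgeR adjusted p = 0.016). Igfbp2, a binding protein of insulin-like growth factors made by the liver, was at 6.76 to 16.6 CPM in control dams and at 18.4 to 28.1 CPM in treated dams. Tsku, a secreted leucine-rich protein of hepatocytes, was at 2.87 to 10.3 CPM against 13.3 to 30.3 CPM on one probe and at a mean of 9.52 CPM against 40.7 CPM on the other, where the groups overlapped. Nfkbia, the inhibitor of NF-κB, did not overlap between the groups, with a log2 fold change of 0.61 ± 0.15. Slc35g1, Rnf187, Pim3, Foxa3 and Il1r1 were also called higher by DESeq2, with log2 fold changes from 0.66 (Foxa3) to 0.89 (Il1r1). Plin4 and Ttc19, on which the groups also did not overlap, were higher by 2.06 ± 0.44 and 1.35 ± 0.32, and DESeq2 gave them no adjusted p.

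**Figure D2:**
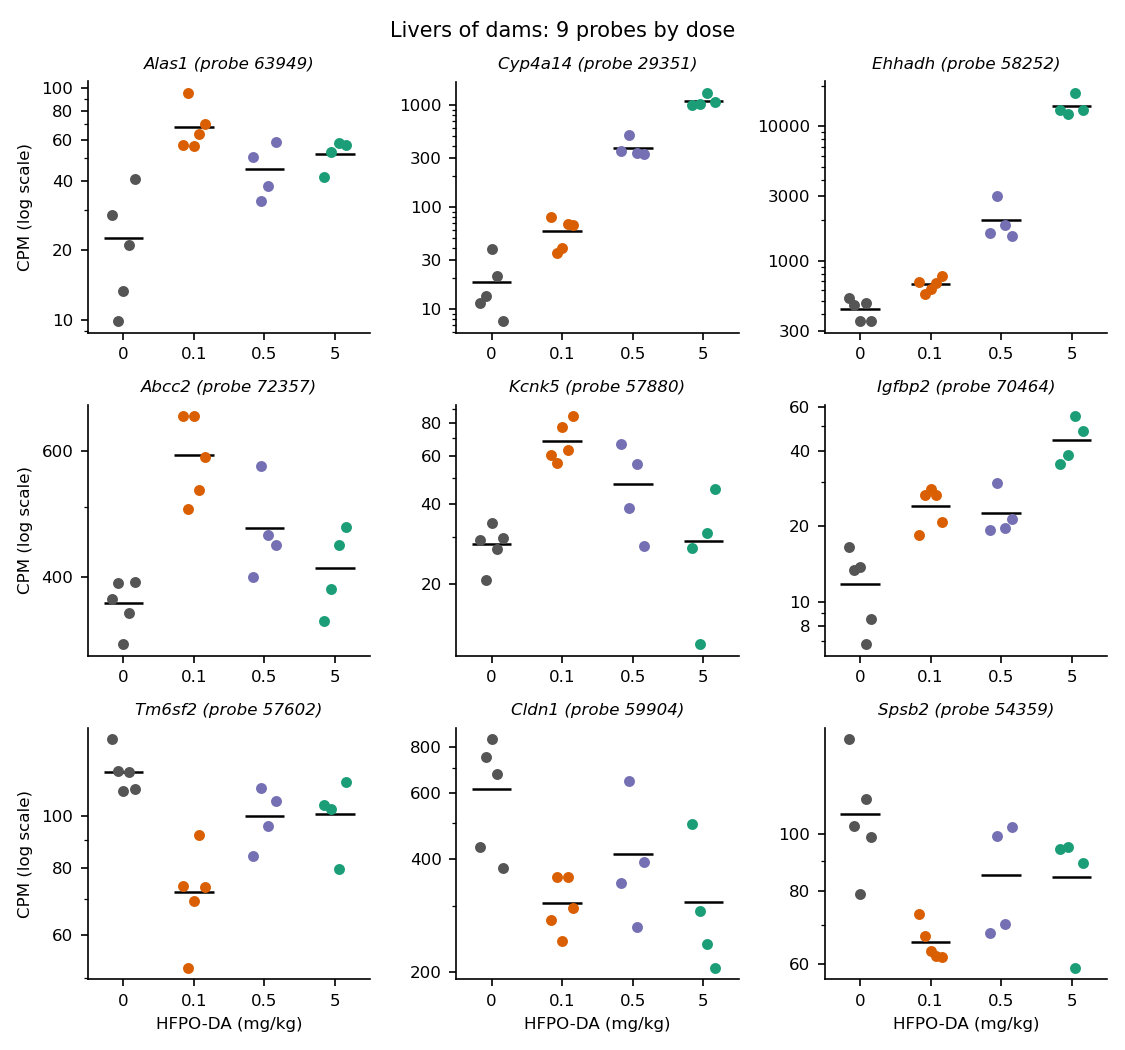
CPM on a log axis for 1 probe each of 9 genes, with 1 point per dam, dose in mg/kg on the x axis, and bars at the group means (5 control dams, 5 dams at 0.1, 4 at 0.5 and 4 at 5 mg/kg). The treated dams at 0.1 mg/kg lie apart from the control dams on each panel but Cyp4a14, where control dam 3 at 38.8 CPM lies within the treated range.

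Among the 27 genes that DESeq2 called lower, Tm6sf2 had the smallest p. Tm6sf2 helps load lipid onto very-low-density lipoprotein (chromosome 8, 70072924 to 70080066). It was at 139, 121, 111, 121 and 112 CPM in control dams 1 to 5 and at 74.0, 52.3, 69.5, 92.0 and 73.9 CPM in treated dams 1 to 5. The groups did not overlap, and the log2 fold change was -0.74 ± 0.15, with an adjusted p of 0.191 in edgeR and of 0.000625 in DESeq2. Cldn1, a tight junction protein, was at 432, 751, 837, 676 and 380 CPM in control dams 1 to 5 and at 275, 358, 242, 359 and 296 CPM in treated dams 1 to 5. Its log2 fold change was -1.01 ± 0.25, and the lowest control value was close to the highest treated one.

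Rnf125, a ubiquitin ligase, was at 467 to 850 CPM in control dams and at 258 to 397 CPM in treated dams on its main probe, and all 3 of its probes were lower, by 0.50 to 0.89. Spsb2, an adaptor of ubiquitin ligases, was at 78.9 to 145 CPM against 61.7 to 73.1 CPM. Eif4ebp1, which restrains cap-dependent translation, was at 61.0 to 101 CPM against 39.7 to 55.2 CPM. Erbb3, a receptor of neuregulins, was at a mean of 438 ± 57.2 CPM (SD, n = 5) in control dams and of 323 ± 14.4 CPM (SD, n = 5) in treated dams. On these probes of the 4 genes the groups did not overlap.

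Of the lipid genes called lower, Hacl1 cleaves 2-hydroxy and branched fatty acids in peroxisomes. On the probe called, it was at a mean of 284.5 CPM in control dams and of 176 CPM in treated dams, with control dam 3 the highest. Tm7sf2, a sterol reductase, was at 88.1 to 203 CPM against 55.3 to 116 CPM, and Ces1g, a carboxylesterase, had a log2 fold change of -0.67 ± 0.20. Slc25a17, a peroxisomal carrier, had -0.48 ± 0.14. St5, Tspyl1, Nme1, Ranbp10, D10Wsu102e, Zfp787, Zfp36l1, Rdh5, Fam43a, S100a10, Plxnc1, Rnf141, Cstf2t and Rabep1 were also called lower by DESeq2, with log2 fold changes from -1.02 (St5) to -0.41 (Rabep1). So were Gm6665 and Gm9242, predicted genes whose reads may be shared with close copies. Probes disagreed for Rdh5, Tspyl1 and Zfp787, each of which had a second probe with a value above 0.

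Genes that PPARα is known to raise were examined as a list of 32, of which 31 were tested and Cidec was not, for low counts. Their median log2 fold change was 0.26, beside -0.01 over all 11922 genes. Among the 36 lists, higher medians were those of the circadian clock (0.34, and 0.13 without control dam 3) and of 6 AhR targets (0.27). Of the 31 genes, 26 were above 0, beside 48.9% of all genes, for which 51.1% were below 0. On 2 genes the treated dams were all above the control dams, beside 0.654% of all genes, and on 0 all below, beside 0.596%. At an unadjusted p under 0.05, 7 were higher (Cyp4a14, Plin4, Ehhadh, Pex11a, Cyp4a31, Acot1 and Plin5), beside 2.26% of all genes, and 1 was lower (Plin2), beside 2.74%. The median lay between 0.13 (without treated dam 5) and 0.32 (without control dam 1), and was 0.14 without control dam 3, when 8 genes were higher and 0 lower at that p. Against the same control dams it was 1.04 at 0.5 mg/kg, where 13 genes passed, and 2.19 at 5 mg/kg, where 25 passed. Summed over the list, the level was 9036 to 15816 CPM in control dams and 9942 to 14932 CPM in treated dams, so the sums overlapped.

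Within the list, the Cyp4a genes and the peroxisomal enzymes did not share 1 value. Ehhadh was at 526, 463, 357, 481 and 353 CPM in control dams 1 to 5 and at 686, 564, 615, 682 and 769 CPM in treated dams 1 to 5. These did not overlap, and the log2 fold change was 0.61 ± 0.17, with an adjusted p of 0.664 in edgeR and of 0.0836 in DESeq2. Only 1 of the 10 DESeq2 fits that left out a dam still called Ehhadh. Pex11a, which promotes division of peroxisomes, was at 13.1 to 24.5 CPM against 17.04 to 39.95 CPM. Cyp4a10 was at 58.5 to 169 CPM against 62.3 to 212 CPM, with a log2 fold change of 0.52 and a 95% interval from -0.01 to 1.04. Cyp4a10 and Cyp4a31 are close copies, and reads of the one may have been counted on the probe of the other. Acot1, an acyl-CoA thioesterase, was at 3.58 CPM in control dam 5, at 31.4 to 52.5 CPM in the other control dams and at 31.8 to 108 CPM in treated dams.

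Fabp1 was at 4446, 2870, 2313, 3297 and 1577 CPM in control dams 1 to 5 and at 3119, 2711, 2860, 2784 and 3725 CPM in treated dams 1 to 5. The treated values lay within the range of the control dams. The log2 fold change was 0.07, with a 95% interval from -0.34 to 0.48, so that a 2-fold difference in either direction lay outside the interval. At 5 mg/kg, with the same control dams, Fabp1 rose by 1.76. Vnn1, Pdk4 and Fgf21, low in these livers, were at means of at most 2.53 CPM in either group, and their intervals spanned more than a 2-fold difference. Cpt1a, which gates entry of fatty acids into mitochondria, was at 5.87 to 12.1 CPM against 9.47 to 16.3 CPM, and Ppara itself at 36.8 to 97.1 CPM against 72.3 to 102 CPM.

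Lipid droplet proteins differed among themselves. Plin2, the coat protein that rises with stored fat, was at 1264, 908, 1038, 604 and 553 CPM in control dams 1 to 5 and at 648, 473, 594, 649 and 662 CPM in treated dams 1 to 5. Its log2 fold change was -0.53 ± 0.22, and 3 control dams lay above all treated dams while the other 2 lay among them. Plin4 was at 6.12, 1.28, 4.79, 7.37 and 1.79 CPM against 10.2, 16.96, 29.3, 8.44 and 24.2 CPM, and Plin5 at 12.7 to 41.9 CPM against 23.7 to 69.5 CPM. Plin4 is also an adipocyte marker. Of the 18 adipocyte markers, 8 were tested, with a median of -0.22, and the summed level of all 18 was 845 to 1912 CPM in control dams and 624 to 1015 CPM in treated dams. Most of this sum was Car3 alone, at 807 to 1866 CPM in control dams and 553 to 947 CPM in treated dams. The sum therefore mostly follows that gene. The defining markers Adipoq, Plin1, Lep and Cidec were at no more than 0.921 CPM in any of the 10 dams.

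**Figure D3:**
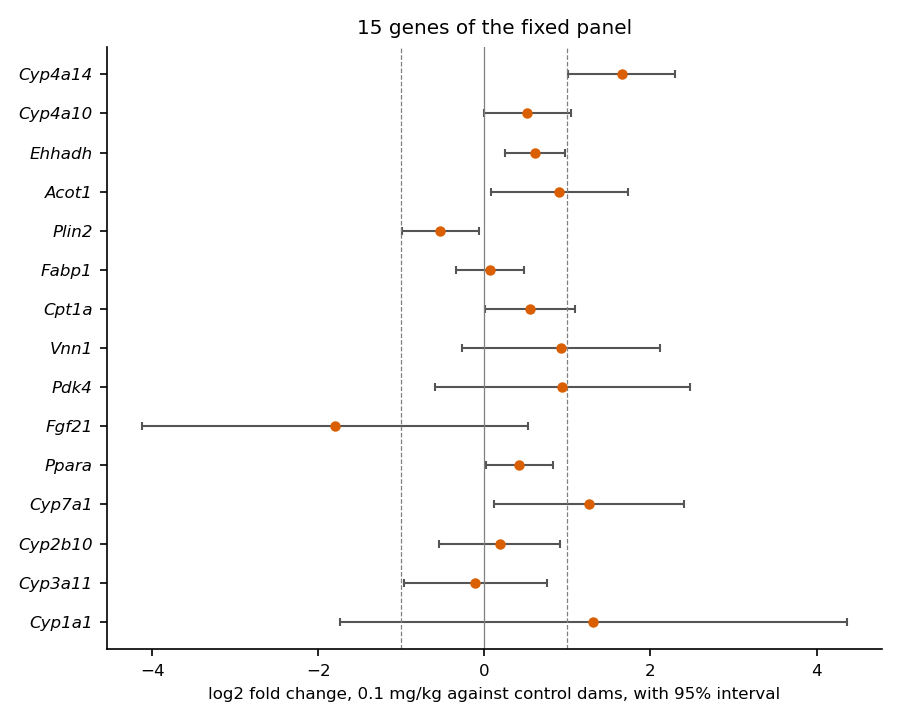
Points give the log2 fold change at 0.1 mg/kg against control dams for 15 genes of a fixed panel, and bars the 95% interval of the edgeR fit, with dashed lines at 2-fold. Fabp1, Ppara and Plin2 are among those within the dashed lines, and Cyp4a14 is the gene whose whole interval lies above 2-fold.

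Peroxisomal and mitochondrial β-oxidation had medians near that of all genes. Of 32 peroxisomal genes, 31 were tested, with a median of 0.01. At an unadjusted p under 0.05, 5 were higher (Ehhadh, Pex11a, Abcd2, Eci2 and Acaa1a), beside 2.26% of all genes, and 1 lower (Hacl1), beside 2.74%. The median was 0.12 without control dam 2. Eci2, an isomerase of unsaturated fatty acids, was at 93.3 to 162 CPM against 145 to 187 CPM, and Acaa1a, the thiolase of the last step, at 308 to 453 CPM against 421 to 1063 CPM. Catalase (Cat), the abundant peroxisomal antioxidant enzyme, had a log2 fold change of -0.01 with a 95% interval from -0.31 to 0.29. The 22 mitochondrial genes had a median of 0.10, with 16 above 0, beside 48.9% of all genes. Cpt1a was the one with an unadjusted p under 0.05. For 19 of these 22 genes the interval lay within 2-fold, beside 52.8% of all genes. Among the 19 were Acadm and Hadha, at 0.10 and 0.11. Against the same control dams, 20 peroxisomal and 20 mitochondrial genes passed higher at 5 mg/kg.

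Genes of cholesterol synthesis were lower as a group, and control dam 3 carried much of this. All 25 genes of the list were tested, with a median log2 fold change of -0.44. At an unadjusted p under 0.05, 8 were lower (Tm7sf2, Nsdhl, Idi1, Fdps, Srebf2, Mvk, Pmvk and Hmgcs1), beside 2.74% of all genes, and 0 higher, beside 2.26%. Hmgcs1 was at 58.5, 66.9, 294, 66.9 and 29.8 CPM in control dams 1 to 5 and at 118, 35.3, 30.4, 32.5 and 53.4 CPM in treated dams 1 to 5. Idi1, an isomerase of the isoprenoid branch, was at 53.3, 38.7, 203, 34.3 and 28.3 CPM against 75.1, 16.8, 17.2, 16.8 and 37.96 CPM. On both genes control dam 3 was far above every other dam, treated dam 1 was the highest of its group, and the groups overlapped. Without control dam 3 the median was -0.13 and 1 of the 25 genes was lower at that p. Without treated dam 2, 3 or 4, in turn, it was -0.37, -0.36 and -0.48, with 2, 2 and 3 genes lower. Without treated dam 5 it was -0.54 with 5 lower, and without treated dam 1 it was -0.67 with 13 lower.

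No gene of the cholesterol list had groups that did not overlap, beside 0.654% of all genes higher and 0.596% lower. With shares that small, 0 of 25 genes says little about the list. Summed over the list, the level was 5342 CPM in control dam 3, 2348 to 3102 CPM in the other control dams, 3884 CPM in treated dam 1 and 1668 to 2787 CPM in the other treated dams. Against the same control dams, the median of the list was 0.48 at 0.5 mg/kg and 0.47 at 5 mg/kg. The 22 genes of fatty acid and triglyceride synthesis had a median of 0.03, with Thrsp the one gene at an unadjusted p under 0.05.

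**Figure D4:**
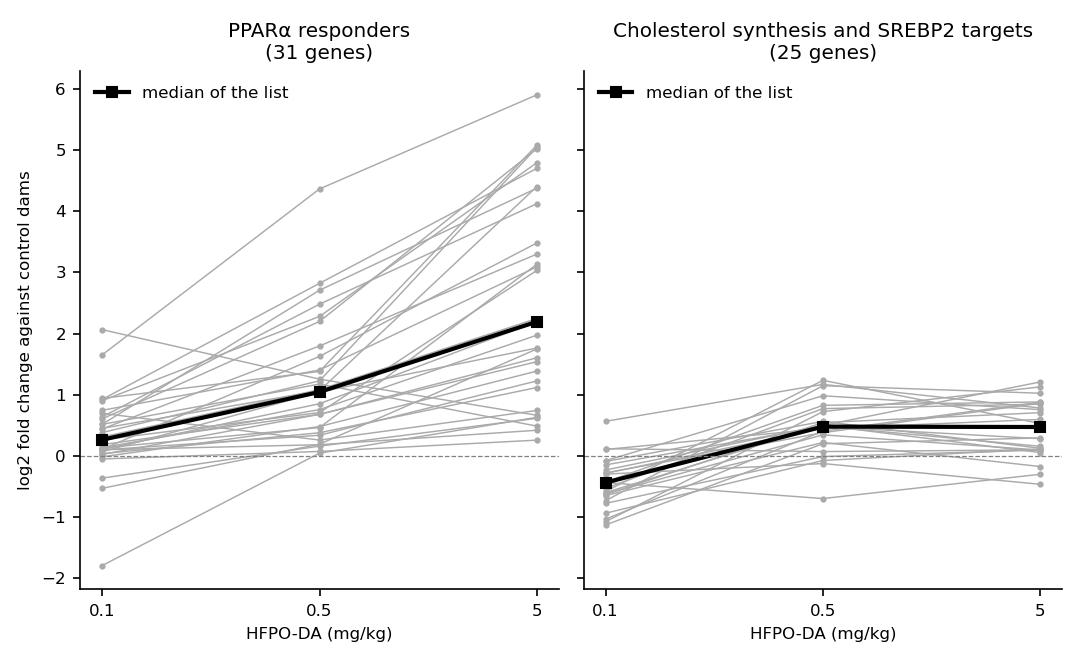
Log2 fold changes against the shared control dams for each dose of the dams (mg/kg), with 1 thin line per gene and a thick line for the median of each list. The median of the PPARα responders was 0.26, 1.04 and 2.19, and that of the cholesterol genes -0.44, 0.48 and 0.47.

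Bile acid genes held values in both directions. The list of 19 had a median of 0.09, with Abcc2, Cyp7a1, Cyp27a1 and Baat higher and Hsd3b7 lower at an unadjusted p under 0.05, beside 2.26% and 2.74% of all genes. The median was 0.18 and 0.16 without control dam 1 and 2, in turn, and 0.05 without control dam 3, when 0 genes were lower at that p. Cyp7a1, the rate-limiting enzyme of bile acid synthesis, was at 33.4, 75.7, 114, 76.7 and 172 CPM in control dams 1 to 5 and at 412, 114, 180, 324 and 101 CPM in treated dams 1 to 5. Its log2 fold change was 1.26 ± 0.55, and control dam 5 lay above 2 of the treated dams. Leaving out any of 4 dams (control dams 1 and 4, treated dams 1 and 4) left 1 gene of the list higher at that p, and leaving out control dam 2, control dam 5 or treated dam 3 left 2.

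The 23 targets of the xenobiotic receptors CAR and PXR had a median of 0.03. At an unadjusted p under 0.05, 3 were higher (Por, Gadd45b and Nr1i2), beside 2.26% of all genes, and 0 lower, beside 2.74%. Alas1 and Abcc2, described above, were not on this list. Cyp2b10 and Cyp3a11, the classic targets of CAR and PXR, were at 98.9 to 193 CPM against 69.8 to 256 CPM and at 181 to 905 CPM against 238 to 1079 CPM. Both ranges overlapped, and both signs turned when single dams were left out. Nr1i2, the gene for PXR itself, was at 39.4 to 76.8 CPM against 67.9 to 93.8 CPM. Cyp1a1, a target of the Ah receptor, was at a mean of 0.345 and 0.874 CPM, too low to bound a 2-fold difference.

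**Figure D5:**
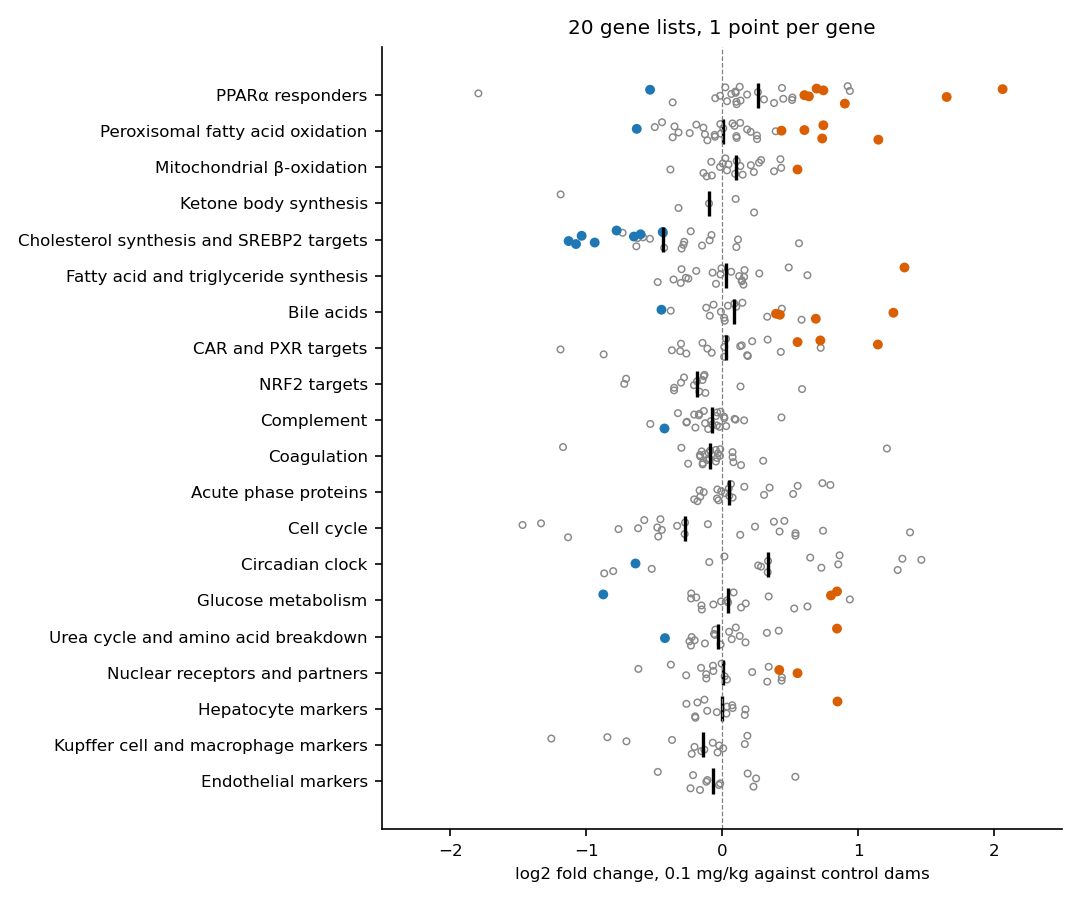
Log2 fold changes at 0.1 mg/kg against control dams for the tested genes of 20 lists, 1 point per gene, with a black bar at the median of each list. Filled points had an unadjusted p under 0.05 (orange higher, blue lower), and most points of the complement, coagulation and hepatocyte lists lie near 0, with medians of -0.08, -0.09 and -0.00.

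What did not move can be bounded from the intervals. For 8286 probes (48.6%) and 6297 genes (52.8%) the 95% interval of the log2 fold change lay within 2-fold in both directions. The share depended on level, from 0 of 2620 genes under 2 CPM to 28.8% of 3520 genes at 2 to 10 CPM, 89.1% of 3522 at 10 to 50 CPM and 95.1% of 1727 at 50 to 250 CPM. At 10 to 50 CPM the median half-width of the interval was 0.46 on the log2 scale, and it was 0.30 in the 533 genes at 250 CPM and over. Below 2 CPM it was 2.49, so that a 2-fold difference was not detectable there.

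Complement and coagulation, the blood proteins that the liver secretes, were mostly bounded within 2-fold, and most were below 0. Of 26 complement genes tested, 24 had intervals within 2-fold, beside 52.8% of all genes and 94.9% of those at 250 CPM and over. Their median was -0.08, with 7 above 0 and 19 below, beside 48.9% and 51.1% of all genes. C1s1 (-0.42) was the one with an unadjusted p under 0.05. C3, the central complement component, was at 3872 to 5594 CPM in control dams and at 4359 to 5397 CPM in treated dams, with an interval from -0.38 to 0.34. Of 26 coagulation genes, 24 were within 2-fold, the median was -0.09 with 6 above 0 and 20 below, and 0 had an unadjusted p under 0.05. Plasminogen (Plg) was at 3918 to 5479 CPM against 4082 to 5089 CPM. Against the same control dams, 14 complement and 20 coagulation genes passed lower at 5 mg/kg, where their medians were -0.59 and -0.66.

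Genes of hepatocyte identity and nitrogen handling were mostly bounded too. Intervals were within 2-fold for 13 of 14 hepatocyte markers and for 16 of 18 genes of the urea cycle and amino acid breakdown. The share was 52.8% of all genes and 94.9% of those at 250 CPM and over. Albumin (Alb) had a log2 fold change of -0.20, with an interval from -0.49 to 0.10. Tat, an enzyme of tyrosine breakdown on both lists, was higher at an unadjusted p under 0.05, at 11.6 to 26.9 CPM in control dams and 14.8 to 53.8 CPM in treated dams, with a log2 fold change of 0.84 ± 0.32. Hal, the enzyme that starts histidine breakdown, was lower without overlap of the groups, as were 0.596% of all genes. It was at 982 to 1297 CPM in control dams and at 786 to 973 CPM in treated dams. Its log2 fold change was -0.42 ± 0.14, against -0.74 and -1.30 at 0.5 and 5 mg/kg with the same control dams. Genes of the cell cycle were low, and 3 of 23 had an interval within 2-fold, so less can be said of them. Their median was -0.28, and -0.10 without control dam 5, with 0 genes at an unadjusted p under 0.05. Acute phase proteins had a median of 0.05 and again 0 such genes among 21, with 13 intervals within 2-fold. Genes that growth hormone makes higher in females had a median of -0.05 at 0.1 mg/kg, with values from -0.87 to 0.36. Of these 16 genes, 0 had an unadjusted p under 0.05, beside 2.26% higher and 2.74% lower among all genes. Intervals were within 2-fold for 7 of the 16, beside 52.8% of all genes, so less can be said of them too.

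Markers of other cells of the liver were examined, and those of pancreas and mammary gland for tissue carried along in the sections. Summed markers of Kupffer cells and macrophages were at 262 to 544 CPM in control dams and 285 to 383 CPM in treated dams, and endothelial markers at 677 to 751 against 620 to 759 CPM. Stellate cell and fibroblast markers spread widely in both groups, from 242 to 973 CPM and from 230 to 1308 CPM. So did cholangiocyte markers, from 13.5 to 82.7 CPM in control dams and from 7.57 to 77.0 CPM in treated dams. Within their groups, control dam 5 and treated dam 2 were highest for both sums. Pancreatic acinar markers were at 51.8 and 41.2 CPM in control dams 1 and 2. They were at 1.45 to 6.06 CPM in the other control dams and at 1.33 to 4.45 CPM in treated dams. At an unadjusted p under 0.05, 4 of 9 were lower, beside 2.74% of all genes. Without control dam 1 or 2, 3 of these 9 genes were still tested and 0 were lower. Milk protein genes, which mark mammary epithelium, summed to at most 0.664 CPM.

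Genes that responded in males at 5 mg/kg gave a set whose response was judged on mice that share no sample with the dams. In the sires fitted alone, 248 probes were raised and 518 lowered over 2-fold with an adjusted p under 0.10 in edgeR. The set was limited to the 11922 genes tested in dams, each judged on its probe with the most counts in dams. By that rule 180 genes were raised and 381 lowered. In dams at 0.1 mg/kg the 180 genes had a median log2 fold change of -0.00. Of them 89 were above 0 and 104 had an interval within 2-fold, beside 48.9% and 52.8% of all genes. At an unadjusted p under 0.05, 11 were higher and 13 lower, beside 2.26% and 2.74% of all genes. The 381 genes had a median of -0.03, with 16 higher and 16 lower. In dams at 5 mg/kg, 133 of the 180 passed higher and 183 of the 381 passed lower.

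The difference between dams and sires at 0.1 mg/kg was tested as an interaction over all 37 mice. It passed for 0 of 17001 probes in edgeR (0%), and 583 had an unadjusted p under 0.05 (3.43%). For Cyp4a14 the log2 fold change was 1.32 in sires at 0.1 mg/kg, and dams differed from sires by 0.34. Ehhadh was higher by 0.71 in sires, with a difference of -0.09. Alas1 was at 0.16 in sires, and the difference was 1.46 without passing after adjustment. The 31 PPARα responders tested in dams had a median of 0.41 in sires at 0.1 mg/kg, against 0.26 in dams.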

How the data were processed

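Livers of 10 dams, 5 at 0.1 mg/kg and 5 controls, were compared by TempO-Seq. The authors sequenced scraped liver sections, demultiplexed reads with bcl2fastq 2.17.1.14, aligned them to the probes with Bowtie (version not given in the sources used here), removed 3 of the study's mice for low depth or few probes, and deposited raw read counts per probe, without normalization; the genome build of the probes is not given in the sources used here. The counts are whole numbers on 30146 probes of 21450 gene symbols. Gene coordinates are those of GENCODE vM21 (GRCm38), in which 21302 symbols were found.

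The tests used R 4.3.3 with edgeR 4.0.16, in which filterByExpr removed probes with low counts, TMM scaled the libraries, and the rest was fitted by the quasi-likelihood method with a mean for each of the 4 doses of the 18 dams. p-values were adjusted by Benjamini-Hochberg over the 17038 kept probes, with a threshold of 0.10. Where the unit is CPM, the counts were divided by the TMM-scaled library size. Standard errors are the log2 fold change divided by the root of F, and 95% intervals use the t distribution at the fit's degrees of freedom. Each gene in a list was represented by its probe with the most counts. DESeq2 1.42.0 was the main alternative. Other alternatives were DESeq2's size factors, no filter, a mean of at least 10 counts, the 10 dams alone, all 37 mice, a robust fit, counts summed per gene, thinned counts, a threshold of 0.05, and leaving out each of the 10 dams. DESeq2 on the 10 dams alone, and without each dam, were chosen after seeing the data. The scripts were tested on simulated data.

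The dams, gene lists and tests were chosen with earlier results of these data known. Genes were named if called by edgeR or DESeq2, if among the 10 probes in each direction with the smallest p of those not overlapping and at a mean of at least 5 CPM, if among the 4 genes of a list (8 for the 4 lipid lists) with the smallest p, or if on a fixed panel of 19 genes, with sex and adipocyte markers as checks. Some genes that these rules name are not reported here. Dams are separate animals, numbered within a group in the order of the deposit. Nothing pairs them. No column of the count table was left unmapped. Precision is set by the spread between dams, at totals of 9612688 to 13878254 counts. Antisense overlap was not resolved.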

Additional observations from a re-analysis of the deposited data

Results flagged for a closer look

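In groups of 5 dams, a value was marked where its gap to the nearest other dam exceeded 0.71 of the group's range (Dixon's criterion). Of 124 groups examined, 7 were marked, and chance marks about 1 in 20. Control dam 3 was highest for Hacl1 (414 CPM, next 275). Control dam 1 was highest for Eif4ebp1 (101 CPM, next 70.6) and Pim3 (40.6 CPM, next 22.5), and control dam 4 lowest for Dpys (141 CPM, next 169). Treated dam 1 was highest for the second probe of Rnf125 (149 CPM, next 119). Treated dam 5 was highest for Pim3 (54.0 CPM, next 39.7) and lowest for Tspyl1 (25.6 CPM, next 34.5).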

How the results depend on the processing

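The count of called probes was 0 in the edgeR fit to the 18 dams, and again 0 with DESeq2's size factors, a mean of at least 10 counts, all 37 mice, the robust fit, counts summed per gene, thinned counts and a threshold of 0.05. It was 27 without the filter on low counts (15 higher, 12 lower), 1 with the 10 dams alone (Kcnk5) and 48 with DESeq2, and the cause of the difference between the tests was not tested. Leaving out 1 dam gave 0 to 1 calls in edgeR, which were Pim3 without control dam 1, Cyp4a14 without control dam 3 and Alas1 without control dam 5. In DESeq2 it gave 19 (without treated dam 3) to 84 (without control dam 5), with 30, 24 and 26 without treated dams 2, 4 and 5, and 52 on the 10 dams alone. Of its 48 probes, 11 were called in all 10 of these fits. The 797 probes with an unadjusted p under 0.05 became 2083 without the filter and 442 with all 37 mice.

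When single dams were left out, the sign turned for 3 of the 61 probes examined, all near 0: the range was -0.069 to 0.37 for Cyp2b10, -0.49 to 0.085 for Cyp3a11 and -0.087 to 0.27 for Fabp1. Among 36 lists, medians moved by more than the spread of control dams under other settings for p53 targets (0.12 to 0.13) and pancreatic markers (-1.31). Leaving out single dams moved 16 medians of 8 lists that far, with ranges of 0.02 to 0.26 for p53 targets, -0.03 to 0.12 for peroxisomal genes, 0.04 to 0.18 for bile acids, 0.03 to 0.32 for AhR targets, -0.36 to -0.10 for the cell cycle, -0.30 to 0.11 for ER stress, -0.43 to 1.59 for cholangiocyte markers and -4.20 to -1.06 for pancreatic markers. No paired analysis was possible because the labels give no numbers that tie a treated dam to a control dam. Depth limits the statements to genes above about 2 CPM, and 5 dams a group to differences larger than the intervals given.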
